A study of Mus musculus with 6 samples.

Results

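The apoptosis genes were 32 listed genes of programmed cell death, measured in the hypothalamus of wild type (WT) and *Fmr1* KO female mice. They were taken by name and fell into the Bcl2 family (9 genes), caspases and cytochrome c (7), inhibitors of apoptosis (5), death receptors and their adaptors (8), and a last class of 3 genes, the co-chaperones *Bag3* and *Bag4* with *Bcl10*. A probe was found for 31 of the 32, and *Pidd1* was not analysed here. Of these 31 genes, 24 passed the count minimum used for testing, a raw count above 20 in at least 3 of the 6 lanes, and 7 did not. The whole table held 787 probes, of which 601 were tested.

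The groups were 3 FVB.129P2-Fmr1tm1Cgr/J mice (*Fmr1* KO), whole-body knockouts that lack the protein Fmrp, and 3 congenic WT controls. All 6 were females of 8 weeks, perfused and collected in diestrus, the low-estrogen stage of the estrous cycle. RNA of each dissected hypothalamus (50 ng) was hybridised to color-coded probes and counted digitally on an nCounter instrument, with a neuroinflammation panel extended by hypothalamic neuropeptide and receptor probes. No other treatment was given, and *Fmr1* itself was not analysed here.

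Apoptosis runs along a pair of routes that meet at the executioner caspases, proteases which dismantle the cell. In the mitochondrial route, Bax and Bak1 form pores in the outer mitochondrial membrane and release cytochrome c, which activates caspase-9, while Bcl2 and its protective relatives hold the pore formers in check. In the death receptor route, ligand-bound receptors such as Fas recruit Fadd and activate caspase-8, and Bid carries that signal to the mitochondria. Xiap inhibits caspases directly. Most of this machinery is controlled by protein binding and cleavage, so a transcript level measures supply and not activity. In the brain, apoptosis removes surplus neurons in development, and adult neurons keep several components at low levels.

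Total counts per lane ranged from 165514 to 339934, lowest in *Fmr1* KO replicate 2 and highest in *Fmr1* KO replicate 1. The factors by which the authors scaled the lanes ranged from 0.767 to 1.72, the largest being that of *Fmr1* KO replicate 2. Probes too weak for testing had a median normalized count of 20.6 in that lane, against 9.20 to 11.1 in the other 5 lanes, so values of weak probes are given below with and without it. Under one shared run label, WT samples carried the first 3 sample numbers and *Fmr1* KO samples the last 3. If these numbers follow the place of a lane in the run, its effect cannot be told apart from that of genotype. Several marker lists moved with genotype. All 9 measured oligodendrocyte markers were higher in the KO at an unadjusted p under 0.05, 1 of them past the adjusted threshold, with a summed normalized count of 12611 to 19497 in WT and 16966 to 23866 in KO lanes. Summed microglia markers (10 of 13 with a probe) were 1155 to 1341 in WT and 1125 to 1260 in KO lanes and overlapped. Summed astrocyte markers (5 of 10) were 8122 to 8708 in WT and 7131 to 7718 in KO lanes, which did not overlap, and 2 of the 5 were lower at an unadjusted p under 0.05. All 13 listed markers of hypothalamic neurons were measured and passed the count minimum. They summed to 13994 to 14179 in WT and 14019 to 21115 in KO lanes. *Avp* (mean 3214 in WT and 5776 in KO) and *Oxt* (2537 and 4366) weighed most in the KO sums, so the sums do not describe the whole list. In the KO, 4 were higher and 3 lower at an unadjusted p under 0.05. Of those lower, 1 passed the adjusted threshold, *Cartpt* (3715 and 2401). *Prl*, the prolactin gene of the adjoining pituitary, was counted 123, 6 and 1626 times in the WT lanes against 4, 6 and 9 times in the KO lanes, so that WT replicates 1 and 3 stood apart. The 8 measured markers of other blood leukocytes had raw counts of only 2 to 18 and none passed the minimum. The part of cell composition in the values below was not tested, and in bulk tissue fewer cells of a type and less RNA per cell cannot be told apart.

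No apoptosis gene differed between *Fmr1* KO and WT hypothalami at an adjusted p under 0.05. In edgeR's quasi-likelihood test over all 601 probes the count was 0 of 24, and it was 0 with DESeq2 and with limma as well. Across the panel 5 of 601 probes passed (0.832%). Adjusted p of the 24 genes ran from 0.587 for *Bak1* to 0.990. At an unadjusted p under 0.05, 1 of 24 was higher in the KO, *Bak1*, and 0 were lower, where the panel had 5.66% higher and 2.83% lower. The log2 fold change of KO over WT was above 0 for 13 genes and below 0 for 11, and 52.7% of the 601 probes were above 0. Its median was 0.01 over the apoptosis genes and 0.01 over all tested probes. Lanes of the groups did not overlap for 1 of 24 higher in the KO, *Bak1*, and for 2 lower, *Bag4* and *Bcl10*. The panel share was 6.82% in each direction. The 3 genes with separated lanes and the 1 gene with a small unadjusted p lie near what the panel as a whole gave.

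**Figure D1:**
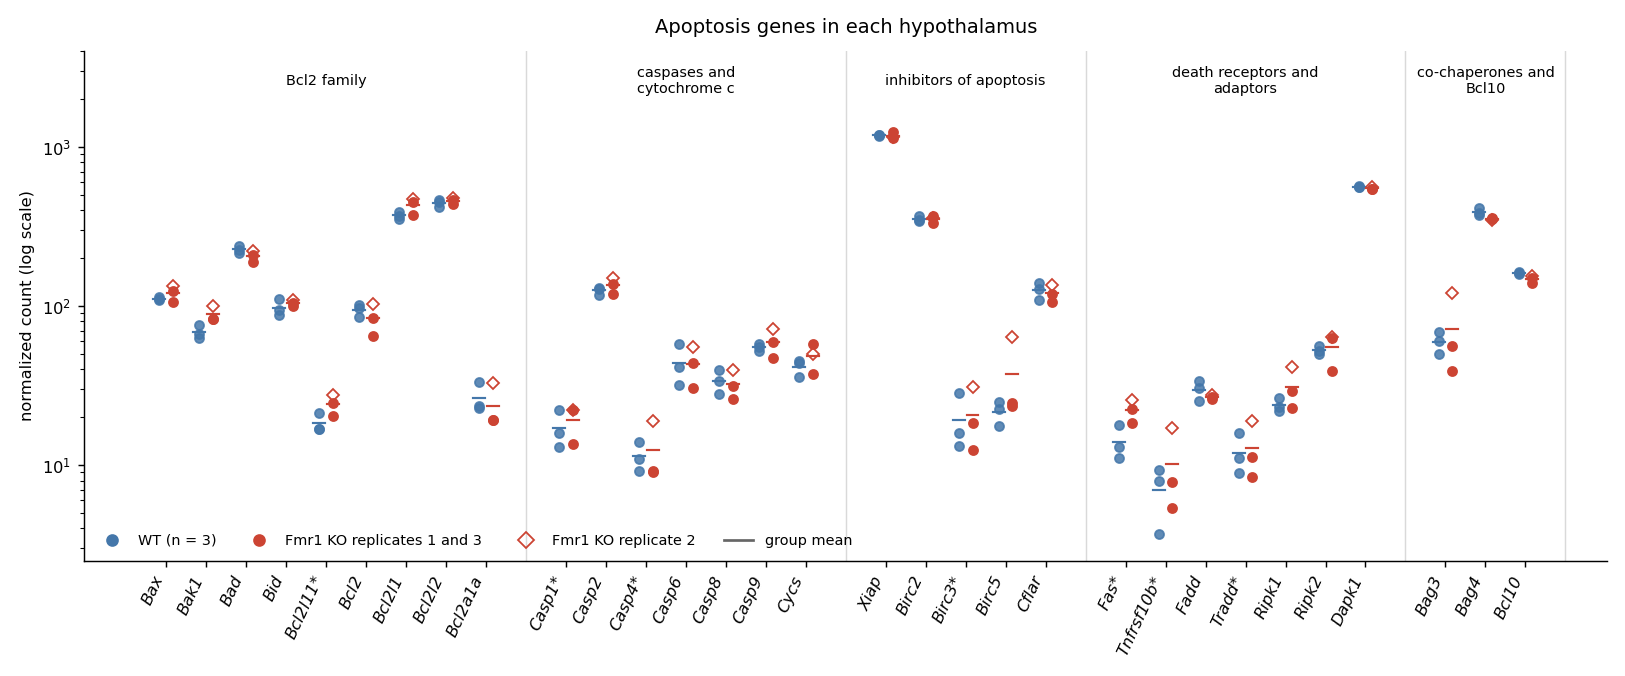
Normalized count (log scale) of the 31 apoptosis genes in each of the 6 lanes, by class, with horizontal lines for group means and an asterisk at the 7 genes under the count minimum. Most genes had overlapping WT and *Fmr1* KO lanes, and *Fmr1* KO replicate 2 (open diamond) was the highest lane for all 7 genes under the minimum.

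The precision of these values differed widely among the genes. For 14 of the 24 the 95% interval of the fold change lay within 1.5-fold in either direction. The standard error of the log2 fold change was under 0.1 for 5 genes. Raw counts reached at least 100 in every lane for 7 of the 31 genes, and 10 had at least 1 lane at or under 20. The interval of the other tested genes reached beyond 1.5-fold in at least 1 direction.

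**Figure D2:**
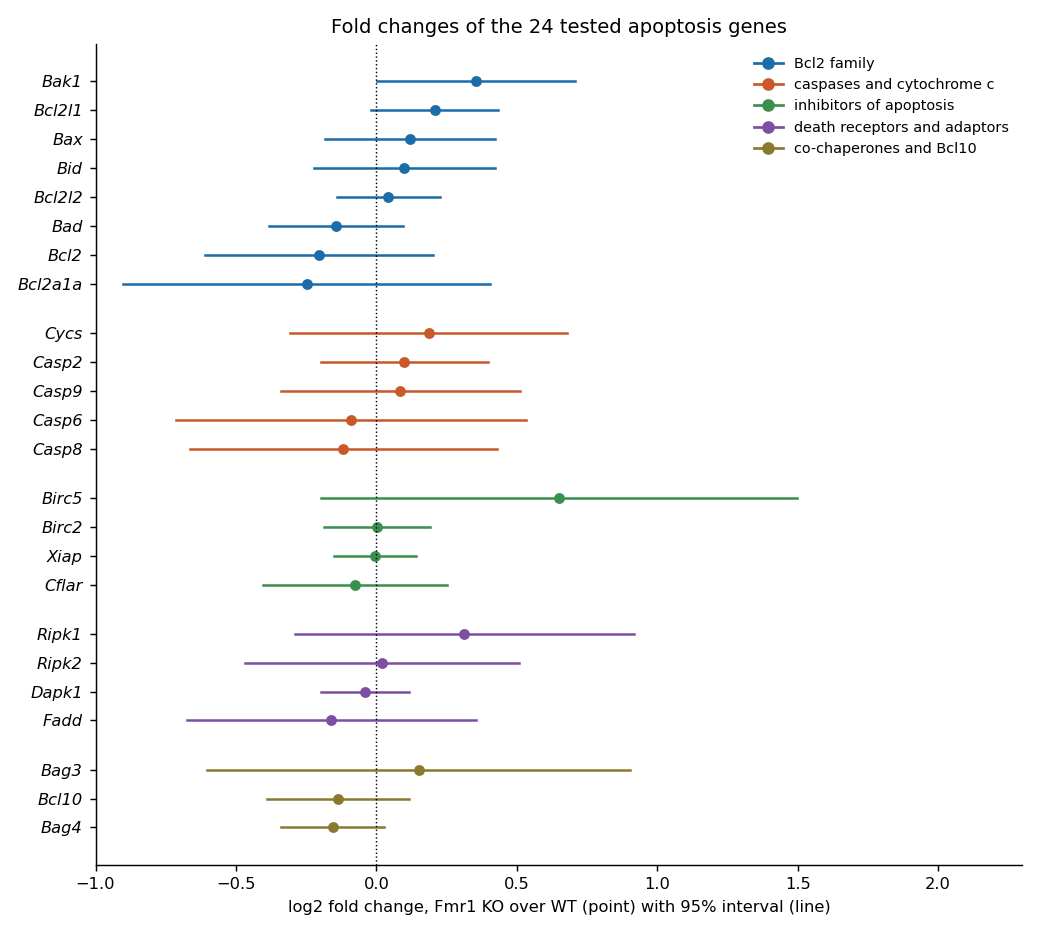
Log2 fold change of *Fmr1* KO over WT (point) with its 95% interval (line) for the 24 tested apoptosis genes, coloured by class. Every interval but that of *Bak1* (0.00 to 0.71) includes values on both sides of 0.

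In the Bcl2 family, 8 of 9 genes were tested, 5 with a log2 fold change above 0 and 3 below, with a median of 0.07. *Bak1*, which encodes a pore former of the outer mitochondrial membrane, was the only gene of the 24 with an unadjusted p under 0.05. That p was 0.0498 (edgeR), close to the threshold. Its normalized counts were 62.8, 66.8 and 75.6 in WT replicates 1 to 3, and 82.8, 99.6 and 83.3 in *Fmr1* KO replicates 1 to 3. All KO lanes lay above all WT lanes. The means were 68.4 ± 6.53 and 88.6 ± 9.53 (SD, n = 3). On the log2 scale the KO was higher by 0.35 (SE 0.16, adjusted p = 0.587, edgeR). *Bak1* was no longer under the unadjusted threshold when WT replicate 1 (log2 fold change 0.30) or WT replicate 2 (0.34) was left out, nor without *Fmr1* KO replicate 2 (0.28) or 3 (0.39). Its adjusted p ran from 0.337 to 0.998 over all alternatives tried (edgeR, DESeq2 and limma). The call was also lost with DESeq2 (unadjusted p = 0.113) and, in edgeR, with total count scaling (0.05001) and with a replicate block (0.0692). The difference in *Bak1* did not pass correction, and its unadjusted call depended on single lanes and on the method. The oligodendrocyte markers, higher in the KO as given above, moved the same way, and their part in *Bak1* was not tested.

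*Bax*, the partner of *Bak1* in pore formation, is given beside it although it was chosen after its values were seen. WT lanes held 109, 114 and 112 normalized counts, and KO lanes 125, 134 and 106. The KO lanes spread on both sides of the WT lanes. The log2 fold change was 0.12 (SE 0.14, 95% interval -0.18 to 0.42, adjusted p = 0.895, edgeR), so that a rise of the size estimated for *Bak1* lies inside the interval of *Bax*. Whether the 2 genes differ in their response was not tested. The other tested members that favor death also overlapped between groups. *Bad*, which binds the protective members, averaged 227 ± 11.6 in WT and 207 ± 16.3 in KO, and *Bid*, which links death receptors to mitochondria, 97.4 ± 11.9 and 105 ± 4.72 (SD, n = 3).

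The sequences around the transcription starts of *Bak1* and *Bax* are shown because these genes encode the pore-forming pair and only the lanes of the former separated by genotype. They run from 250 bases before to 50 bases after the start, from RefSeq on GRCm38.p6. *Bak1* lies at chr17:27028578-27028877 on the minus strand and *Bax* at chr7:45466849-45467148 on the minus strand. Capitals mark a p53 decamer, a pair of which makes up a response element of the tumor suppressor p53, and GC boxes, GGGCGG or its reverse complement, bound by Sp1-type factors.
Bak1: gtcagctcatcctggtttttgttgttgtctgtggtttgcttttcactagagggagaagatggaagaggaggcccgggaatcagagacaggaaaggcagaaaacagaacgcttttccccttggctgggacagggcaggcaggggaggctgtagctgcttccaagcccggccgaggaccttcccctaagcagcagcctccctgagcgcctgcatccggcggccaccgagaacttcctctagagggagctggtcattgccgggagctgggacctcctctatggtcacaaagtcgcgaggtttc
Bax: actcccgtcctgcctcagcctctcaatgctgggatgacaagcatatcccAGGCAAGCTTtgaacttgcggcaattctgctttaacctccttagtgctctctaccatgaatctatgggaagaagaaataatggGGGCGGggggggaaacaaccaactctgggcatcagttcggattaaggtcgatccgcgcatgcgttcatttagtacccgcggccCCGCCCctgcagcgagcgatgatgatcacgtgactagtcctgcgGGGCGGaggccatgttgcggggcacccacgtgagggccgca
The *Bax* window held 1 p53 decamer and 3 GC boxes, and the *Bak1* window 0 of each. On both strands, the decamer was in 8.36% of 32851 promoter windows of this length and in 3 of 37 windows of the apoptosis genes (8.11%), those of *Bax*, *Birc2* and *Birc5*. The GC box was in 35.7% of all windows and in 24 of the 37 (64.9%). Windows were matched for 28 of the 32 genes, some with more than 1 start. A match describes the letters of the window and not a bound site, and a link between matches and counts was not tested.

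*Bcl2l2*, which encodes the protective protein Bcl-w, had the highest probe counts and the smallest standard error of the family. Its 6 lanes held 419, 453 and 463 normalized counts in WT and 462, 481 and 436 in KO. Groups overlapped, with means of 445 ± 22.9 and 459 ± 22.5 and a log2 fold change of 0.04 (SE 0.08, 95% interval -0.14 to 0.23, adjusted p = 0.934, edgeR). *Bcl2l1*, which encodes Bcl-xL, the main survival factor of its family in mature neurons, and *Bcl2* were chosen for display after their values were seen. *Bcl2l1* held 392, 355 and 367 normalized counts in WT and 373, 474 and 448 in KO, with the first KO lane inside the WT range and the other two above it. Its log2 fold change was 0.21 (SE 0.10, 95% interval -0.02 to 0.43, adjusted p = 0.630, edgeR). Without *Fmr1* KO replicate 1 it was 0.31 (adjusted p = 0.200, edgeR), its smallest adjusted p over all alternatives tried, the largest being 0.998. In that setting and with TMM scaling (0.0428, edgeR) the unadjusted p of *Bcl2l1* was under 0.05.

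*Bcl2*, the founding member, had an estimate below 0 that rested on *Fmr1* KO replicate 1. WT lanes held 101, 96.7 and 84.8 normalized counts and KO lanes 65.2, 103 and 84.4, so that the KO lanes enclosed the WT range. Its log2 fold change was -0.20 (SE 0.18, 95% interval -0.61 to 0.20, adjusted p = 0.828, edgeR). Leaving out *Fmr1* KO replicate 1 gave -0.025, and leaving out replicate 2 of that group gave -0.35. *Bcl2a1a*, whose near-identical copies a probe may not separate, was weak, with raw counts of 17 to 36 and a log2 fold change of -0.25 (SE 0.30). Taken by role, the 4 tested pro-apoptotic members had a median log2 fold change of 0.11 (3 above 0, 1 below), and the 4 protective members -0.08 (2 above, 2 below).

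The ratio of pore former to protective transcript within a lane does not depend on lane scaling. *Bak1* over *Bcl2* in raw counts was 0.620, 0.691 and 0.891 in WT lanes and 1.27, 0.967 and 0.987 in KO lanes. These groups did not overlap, with means of 0.734 ± 0.141 and 1.07 ± 0.170 (SD, n = 3). Across all pairs of tested probes, 17.1% of ratios had groups that did not overlap in one direction or the other. That share covers any pair, whereas this ratio holds *Bak1*, whose own lanes separated, and so is not independent of that result. An exact permutation test of 3 against 3 cannot go below a two-sided p of 0.1. *Bax* over *Bcl2* was 1.07, 1.18 and 1.32 in WT lanes and 1.92, 1.30 and 1.25 in KO lanes. Here the groups overlapped, only *Fmr1* KO replicate 1 lying above every WT lane. *Bak1* over *Bcl2l1* averaged 0.185 ± 0.0231 in WT and 0.206 ± 0.0185 in KO, and *Bax* over *Bcl2l1* 0.301 ± 0.0216 and 0.285 ± 0.0496, both overlapping. The separation of the first ratio was not shared by the rest.

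**Figure D3:**
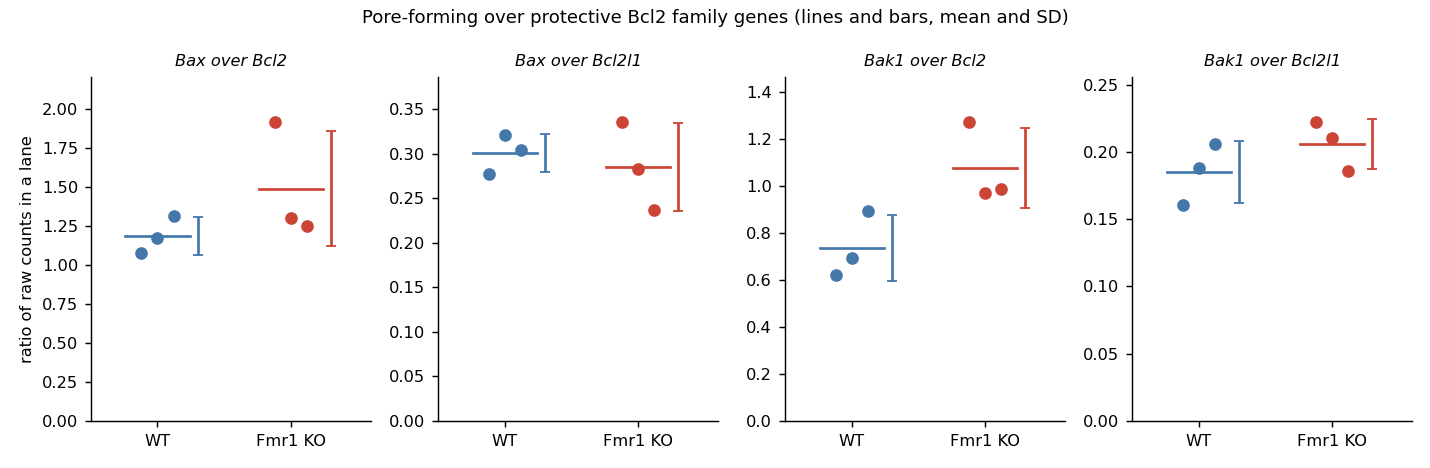
Ratio of raw counts of a pore-forming gene (*Bax* or *Bak1*) over a protective gene (*Bcl2* or *Bcl2l1*) in each lane, WT and *Fmr1* KO (points), with group mean (line) and SD (bar), n = 3. The *Bak1* over *Bcl2* lanes did not overlap, and those of the other 3 ratios did.

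Of the caspases and cytochrome c, 5 of 7 genes were tested, 3 above 0 and 2 below, with a median log2 fold change of 0.09. *Casp2*, a caspase of stress-induced neuronal death, had the highest counts of the class. Its WT lanes held 129, 130 and 118 normalized counts (mean 125 ± 6.40) and its KO lanes 120, 149 and 138 (mean 136 ± 15.0). The lanes overlapped, and the log2 fold change was 0.10 (95% interval -0.20 to 0.40, adjusted p = 0.916, edgeR). *Cycs*, the gene of cytochrome c, which activates the apoptosome once it leaves the mitochondria, held 44.1, 44.9 and 36.0 in WT and 37.6, 49.8 and 57.4 in KO lanes. These overlapped too, with a log2 fold change of 0.19 (SE 0.22, adjusted p = 0.907, edgeR). *Casp9*, the initiator of the mitochondrial route, had a log2 fold change of 0.09 (SE 0.19), *Casp8*, the initiator of the death receptor route, -0.12 (SE 0.25), and *Casp6*, an executioner, -0.09 (SE 0.28). The widest interval of these 5 was that of *Casp6*, from -0.72 to 0.53, which includes a decrease of over 1.5-fold but no rise of that size.

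Of the inhibitors of apoptosis, 4 of 5 genes were tested, 2 above 0 and 2 below, with a median of -0.00. *Xiap*, a direct inhibitor of caspases, gave the most closely measured value among all apoptosis genes. Its lanes held 1183, 1172 and 1194 normalized counts in WT and 1135, 1157 and 1244 in KO. Means were 1183 ± 10.9 and 1179 ± 57.6, with a 95% interval of the fold change from 0.901 to 1.10 (adjusted p = 0.990, edgeR). *Birc2*, a ubiquitin ligase of TNF receptor complexes, averaged 353 ± 11.5 and 354 ± 18.9, and *Cflar*, the caspase-8 decoy FLIP, 125 ± 14.9 and 120.1 ± 14.9. *Birc5*, which encodes survivin and is used by dividing cells for chromosome segregation, had the largest estimate of the 24 genes and rested on 1 lane. Its WT lanes held 22.5, 24.9 and 17.5 normalized counts, and its KO lanes 24.5, 63.5 and 23.6. *Fmr1* KO replicate 2 was far above the other 5 lanes, which were close to each other, and its raw count of 37 was the highest of the 6 even though that lane had the lowest total. The log2 fold change was 0.65 (SE 0.38, 95% interval -0.20 to 1.5, adjusted p = 0.723, edgeR), and the ratio of means fell from 1.72 to 1.11 without that lane. The 4 measured proliferation markers summed to 94.4 normalized counts in this lane and to 40.5 to 57.8 in the other 5, but in raw counts to 55 in this lane and 36 to 70 in the others. Of these 4 markers 3 were under the count minimum, and their part in *Birc5* was not tested.

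Death receptors and their adaptors had 4 of 8 listed genes tested, 2 above 0 and 2 below, with a median of -0.01. *Dapk1*, a calmodulin-regulated death kinase abundant in neurons, had the highest counts. Its WT lanes held 569, 558 and 564 normalized counts and its KO lanes 545, 560 and 540.5, with *Fmr1* KO replicate 2 inside the WT range. The means of 564 ± 5.63 and 548 ± 9.97 gave a fold change with a 95% interval of 0.872 to 1.08 (adjusted p = 0.934, edgeR). *Ripk1*, the kinase that switches TNF receptor signals between survival and death, held 26.3, 21.9 and 23.0 in WT and 23.0, 41.2 and 29.3 in KO lanes. The lowest KO lane lay at the level of a WT lane, and the ratio of means moved from 1.31 to 1.10 when *Fmr1* KO replicate 2 was left out. *Fadd*, the adaptor that brings caspase-8 to the receptor, and *Ripk2*, the kinase of Nod receptors, had log2 fold changes of -0.16 (SE 0.23) and 0.02 (SE 0.22).

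The last class held 3 tested genes, 1 above 0 and 2 below, with a median of -0.14. *Bag4* encodes SODD, a co-chaperone that binds the death domain of TNF receptor 1, and it was singled out by the study on these same samples, so its direction is not independent evidence. The lanes of *Bag4* held 375, 416 and 386 normalized counts in WT and 357, 347 and 351 in KO. All KO lanes lay below all WT lanes, and the means were 392 ± 20.9 and 352 ± 5.28. The log2 fold change was -0.16 (SE 0.08, 95% interval -0.34 to 0.03, adjusted p = 0.694, edgeR), and the ratio of means was 0.897, or 0.903 without *Fmr1* KO replicate 2. *Bcl10*, a signaling scaffold of NF-kB activation, held 163, 162 and 159 in WT and 139.5, 154 and 149.8 in KO lanes. These lanes did not overlap either, with means of 162 ± 1.97 and 148 ± 7.64 and an adjusted p of 0.803 (edgeR). Summed astrocyte markers were also lower in every KO lane than in every WT lane. *Slc1a3* (mean 4191 in WT and 3688 in KO) and *Gja1* (2966 and 2589) weighed most in these sums. Only these 2 of the 5 had lanes that did not overlap, and *S100b* did not fall (652 and 656). The part of astrocyte markers in *Bag4* and *Bcl10* was not tested. *Bag3*, a co-chaperone of selective autophagy shown here after its values were seen, held 60.03, 49.8 and 68.2 in WT and 39.1, 120.2 and 56.3 in KO. A single KO lane lay far above, and without it the ratio of means turned from 1.21 to 0.804.

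**Figure D4:**
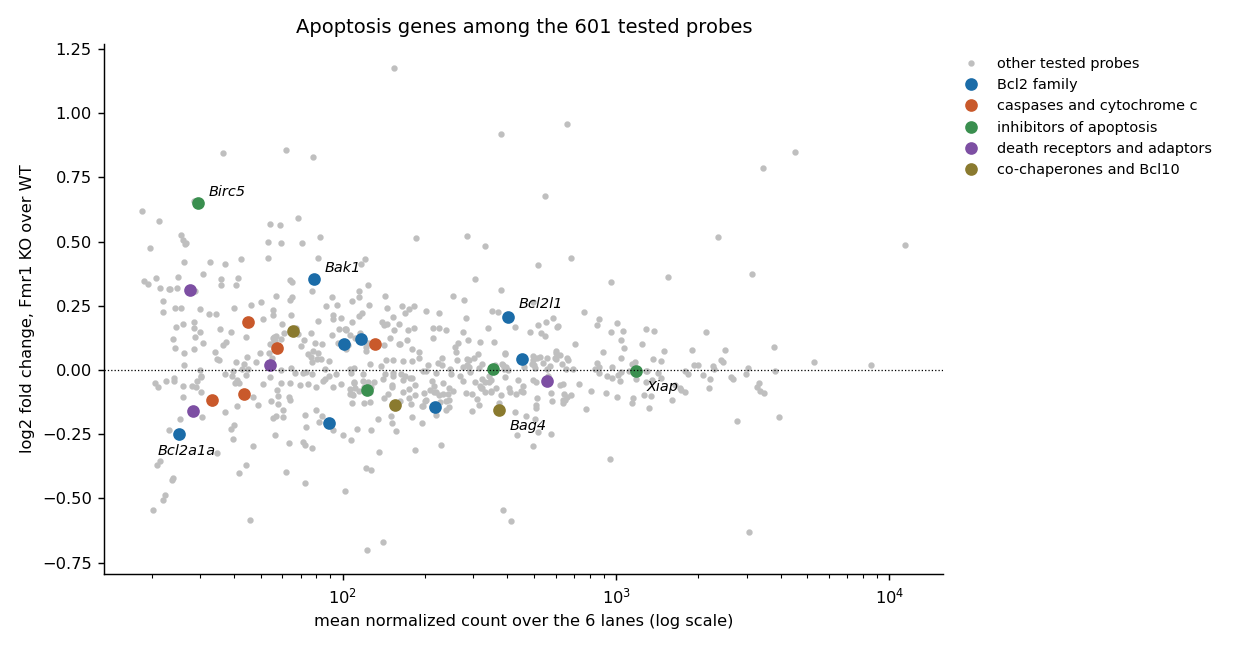
Log2 fold change of *Fmr1* KO over WT against mean normalized count (log scale) for the 601 tested probes, with the 24 apoptosis genes in colour by class. The colored points lie within the spread of the other probes. The highest of them was *Birc5* at 0.65, with a low mean normalized count of 29.4.

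The 7 genes under the minimum were read from raw counts, which near the level of the weakest probes carry little information. The 84 weakest probes of the panel averaged 6.08 to 9.24 raw counts per lane, with a highest single count of 18. *Tnfrsf10b*, the only TRAIL death receptor of mice, was 1 of those 84, its 3 WT lanes counting 10, 8 and 4 molecules and its 3 KO lanes 7, 10 and 7. *Tradd*, the adaptor of TNF receptor 1, had 17, 9 and 12 against 11, 11 and 10, and *Casp4*, the mouse caspase-11 that senses bacterial lipopolysaccharide, 15, 11 and 10 against 12, 11 and 8. These genes lay close to that level in most lanes, and a difference was not detectable at this depth. *Casp1*, the inflammasome caspase, had 17, 13 and 24 against 29, 13 and 12. *Birc3*, an NF-kB-induced relative of *Birc2*, had 14, 16 and 31 against 24, 18 and 11, and *Bcl2l11*, which encodes the pro-apoptotic Bim, 18, 17 and 23 against 32, 16 and 18. The groups overlapped in each of these.

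*Fas*, the receptor of Fas ligand, was the only one of the 7 whose normalized lanes did not overlap. Before scaling, its WT lanes counted 19, 13 and 12 and its KO lanes 24, 15 and 20. Normalized, these were 17.8, 13.0 and 11.1 against 18.4, 25.7 and 22.5, the lowest KO lane lying just above the highest WT lane. Of the 186 probes under the minimum, 4.84% did not overlap in this direction. With no count minimum, *Fas* had a log2 fold change of 0.63 (SE 0.36, adjusted p = 0.840, edgeR), and adjusted p of all 7 genes ran from 0.840 to 0.996.

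The ratios of weak genes moved with *Fmr1* KO replicate 2. It was the highest of the 6 lanes for 11 of the 24 tested apoptosis genes, where it was highest for 36.4% of all tested probes, and for 7 of 7 under the minimum, where the share was 82.8%. The ratio of mean normalized counts was above 1.2 for 7 of 31 genes, namely *Bak1*, *Bcl2l11*, *Birc5*, *Fas*, *Tnfrsf10b*, *Ripk1* and *Bag3*, and below 0.8 for 0. Panel shares at those limits were 25.0% and 3.56%. Without that lane 3 genes stayed above 1.2, *Bak1*, *Bcl2l11* and *Fas*, and 3 others came to lie below 0.8, *Bcl2* (0.794), *Bcl2a1a* (0.722) and *Casp4* (0.797). The panel shares became 11.1% and 13.5%.

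**Figure D5:**
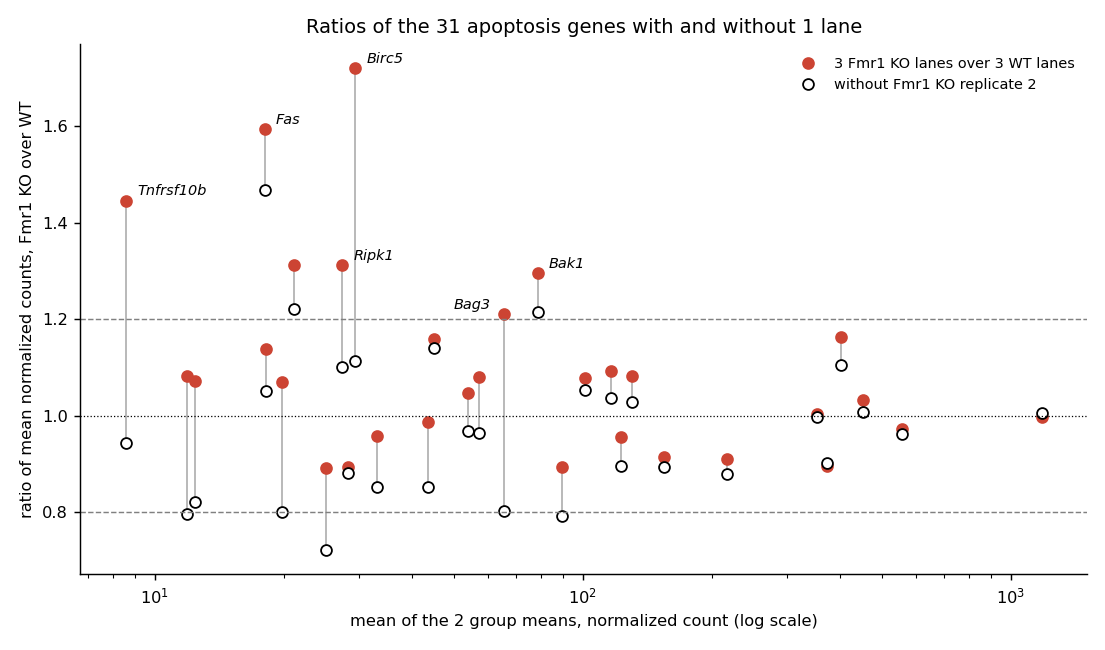
Ratio of mean normalized counts, *Fmr1* KO over WT, for the 31 apoptosis genes against their mean normalized count (log scale), with all lanes (filled) and without *Fmr1* KO replicate 2 (open), and dashed lines at 1.2 and 0.8. Of 7 genes above 1.2 with all lanes, 3 were above it without that lane, and *Birc5* moved from 1.72 to 1.11.

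Other genes of the same pathways were counted over 5 whole lists, which were drawn up with earlier results of these data known, and 0 of their genes passed the adjusted threshold in edgeR. Of 6 other tested genes of the apoptosis machinery, 4 were above 0 and 2 below, with a median of 0.09 and none at an unadjusted p under 0.05. Of 8 tested genes of p53 and its partners 1 was higher at an unadjusted p under 0.05, *Trp53bp2*, whose protein ASPP2 steers p53 toward apoptotic targets (127 ± 4.73 and 157 ± 14.1, log2 fold change 0.29, adjusted p = 0.581). Of 8 NF-kB subunits and kinases 1 was higher, *Nfkbia*, the inhibitor that NF-kB itself induces (48.4 ± 6.82 and 70.2 ± 15.0, log2 fold change 0.50, adjusted p = 0.552). Of 10 tested TNF superfamily genes 1 was lower, *Tnfrsf12a*, the TWEAK receptor (150.4 ± 29.9 and 94.7 ± 20.4, log2 fold change -0.70, adjusted p = 0.219). The 6 tested survival kinases had a median of 0.00 and none at that level. Unadjusted calls thus stood at 1 of 8, 1 of 8, 1 of 10, 0 of 6 and 0 of 6 beside a panel share of 8.49% in either direction.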

How the data were processed

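Hypothalamic RNA of 3 WT and 3 *Fmr1* KO mice was hybridised to nCounter probes. The deposited raw table holds whole-number counts per probe and lane. The authors' value table holds normalized signal, which equals the raw count times 1 factor per lane. A column giving the percent of lanes above the authors' detection threshold was not used. The authors' methods name nSolver and 7 housekeeping genes for scaling. These probes and the control probes were not used here. Probes were named by accession through RefSeq (772 of 787) or else by the table's symbol (15).

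Raw counts with the authors' lane factors were tested with edgeR 4.0.16 (R 4.3.3), quasi-likelihood, KO against WT, for probes above 20 in at least 3 of 6 lanes, with Benjamini-Hochberg adjustment over 601 probes. Alternatives used DESeq2 1.42.0, limma 3.58.1 with pseudocounts of 1 and 10, other scalings and filters, the test named in the methods, background subtraction, a replicate block and leaving out each lane. The fit was also run on simulated counts with 200 of 601 probes changed 2-fold or 1.5-fold. That share is larger than the share that passed in the data, so its recovery does not describe the apoptosis genes. Normalized counts in the text are raw counts times the factor. Standard errors are the log2 fold change over the root of F.

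Lanes with more counts measure weak probes more precisely. Each mouse is 1 lane, counts are not corrected for probe efficiency, and levels of different genes were not compared. Replicates of a group differed by more than counting noise (chi-square per degree of freedom 3.11 to 6.22).

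Members and lists were chosen with earlier results of these data known. Lane values are given for genes with an unadjusted p under 0.05, with lanes that do not overlap, with the highest mean or smallest p of a class, or under the count minimum, and for *Bag4*. Values of some genes of the pathway lists are not reported here.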

Additional observations from a re-analysis of the deposited data

How the results depend on the processing

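The count of apoptosis genes at an adjusted p under 0.05 was 0 in edgeR and in all 18 alternatives, with a smallest adjusted p of 0.200 (*Bcl2l1*, without *Fmr1* KO replicate 1). The count higher at an unadjusted p under 0.05 (1, *Bak1*) was 2 with TMM scaling, 0 with total count scaling, 0 with DESeq2 and 0 to 2 with single lanes left out. Where it was 2, with TMM scaling and without *Fmr1* KO replicate 1, the genes were *Bak1* and *Bcl2l1*. The count lower (0) was 1 with total count scaling (*Bag4*) and 2 with the test named in the methods (*Bag4* and *Bcl10*). Over the alternatives *Bak1* kept its direction, with a log2 fold change of 0.28 to 0.43 and an adjusted p of 0.337 to 0.998. The median log2 fold change moved by less than its spread between replicates, -0.04 to 0.06 with single lanes left out. Of the 24 genes, 15 kept their direction throughout. *Birc2* turned to -0.0073 with TMM scaling, -0.013 with median-ratio scaling, -0.050 with total count scaling and -0.0044 with background subtracted, *Ripk2* to -0.0010 with median-ratio scaling, -0.039 with total count scaling and -0.025 with background subtracted, and *Bcl2l2* to -0.0061 with total count scaling, which shifted the median of all probes to -0.05. The cause was not tested. With single lanes left out the log2 fold change ranged from -0.35 to 0.50 for *Bag3*, -0.033 to 0.049 for *Birc2*, -0.27 to 0.17 for *Casp6*, -0.25 to 0.042 for *Casp8*, -0.034 to 0.22 for *Casp9*, -0.16 to 0.0050 for *Cflar*, -0.12 to 0.26 for *Ripk2* and -0.046 to 0.023 for *Xiap*. Raw counts near the weakest probes limit the 7 genes under the minimum.

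With the replicate number as a block, 0 apoptosis genes were higher at an unadjusted p under 0.05 and 3 probes of the panel passed the adjusted threshold instead of 5. Same-numbered mice did not deviate together (correlations -0.06, -0.08 and 0.10), so the numbers were not taken as a pairing.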
